A study of Rattus norvegicus with 90 samples.

Results

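Rat cardiomyocytes exposed for 9 h to 0.5 mM thioacetamide-S-oxide, the low dose for this cell type, were compared with vehicle-exposed cardiomyocytes at the same time. The sample labels gave 5 low-dose libraries (MS-156 to MS-160) and 5 vehicle libraries (MS-151 to MS-155), which are 10 of the 90 libraries in the series. The whole series covered hepatocytes, renal tube epithelial cells and cardiomyocytes, each at 2 doses and with vehicle, after 9 and 24 h. All cells came from Sprague-Dawley rats and were kept in culture before exposure, and the cardiomyocytes carried heart as the tissue label and no genetic change. The labels name the vehicle medium for hepatocytes and renal cells, but not for cardiomyocytes. They do not say whether the 5 libraries of a group came from separate animals, preparations or wells, so the p-values measure the spread between these libraries, which may be technical.

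Thioacetamide is a hepatotoxicant that becomes harmful after oxidation. Enzymes in the liver convert it to thioacetamide-S-oxide and then to a more reactive dioxide that binds covalently to cell proteins and lipids. Cardiomyocytes are the contractile cells of the heart muscle. The comparison asks which transcripts differed when these cells were given the S-oxide directly.

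RNA was measured as estimated counts, the number of reads that the alignment program assigned to each target, which can be fractional where reads match several targets. Each library listed 65166 targets, of which 40071 were Ensembl transcripts and 25095 were genomic intervals of 1003 to 20000 bases named by their coordinates on the rat Rnor_6.0 assembly. The deposited files do not pair transcripts with genes, and 0 of the targets matched the gene table used here. Transcripts are therefore given by identifier, and the cell type markers and stress pathways could not be counted. As a check of the cell type label, the abundances (log2 CPM, counts scaled to 1000000 per library) of 22074 transcripts in each library were set against the median profile of each cell type at 9 h. Spearman's rho with the cardiomyocyte profile was 0.985 to 0.992 in 9 of the 10 libraries, against 0.867 to 0.885 with renal cells and 0.702 to 0.714 with hepatocytes. In the low-dose library MS-158 the 3 values were 0.894, 0.782 and 0.640. All 10 libraries were therefore nearest to the cardiomyocyte profile, which rests on the labels of the other cardiomyocyte libraries and on no marker gene.

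Sequencing depth differed between the groups. The vehicle libraries held 27585600, 19530938, 22444757, 19467515 and 20965781 estimated counts for MS-151 to MS-155. The low-dose libraries held 61897142, 40864839, 17494079, 44401616 and 44449146 for MS-156 to MS-160. Thus 4 of the 5 low-dose libraries were deeper than every vehicle library, and MS-158 was shallower than all of them. The difference of means gave an exact two-sided permutation p of 0.0476 (adjusted over 5 measures by Benjamini-Hochberg, 0.238), where the smallest p that 5 against 5 allows is 0.00794.

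MS-158 stood apart from the other 4 low-dose libraries in composition as well as depth. It had 19177 transcripts with at least 1 estimated count, against 23191 to 24236 in the other low-dose libraries and 21189 to 22090 in the vehicle libraries. Its 10 most abundant transcripts took 30.8% of its transcript counts, and the 10 most abundant of each other library took 8.92% to 9.40%. The same 10 transcripts took 6.23% to 7.89% in the other 9 libraries, and 9 of the 10 were at a larger share in MS-158 than in any of those. The mean fragment length implied by the effective lengths was 139.2 bases in MS-158 and 157.7 to 172.99 bases in the other 9. Its mean absolute difference from the vehicle mean, over the transcripts tested, was 0.94 on the log2 scale, against 0.21 to 0.30 for the other low-dose libraries. The counts of changes at 9 h and the fold changes of named targets over vehicle are therefore given with and without MS-158. Differences of named transcripts between doses, times and cell types come from fits that include it. The difference in transcripts detected, 1147 more at the low dose, gave an exact two-sided permutation p of 0.294 over all 10 libraries (adjusted over the 5 measures, 0.734). MS-158 was set aside for its few transcripts detected, so no test of that measure is given without it. The other 4 low-dose libraries were above the vehicle range both in transcripts detected and in depth, and the part of depth in this was not tested. Neither measure gives the number of cells or the RNA per cell, and in bulk RNA these cannot be told apart.

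**Figure D1:**
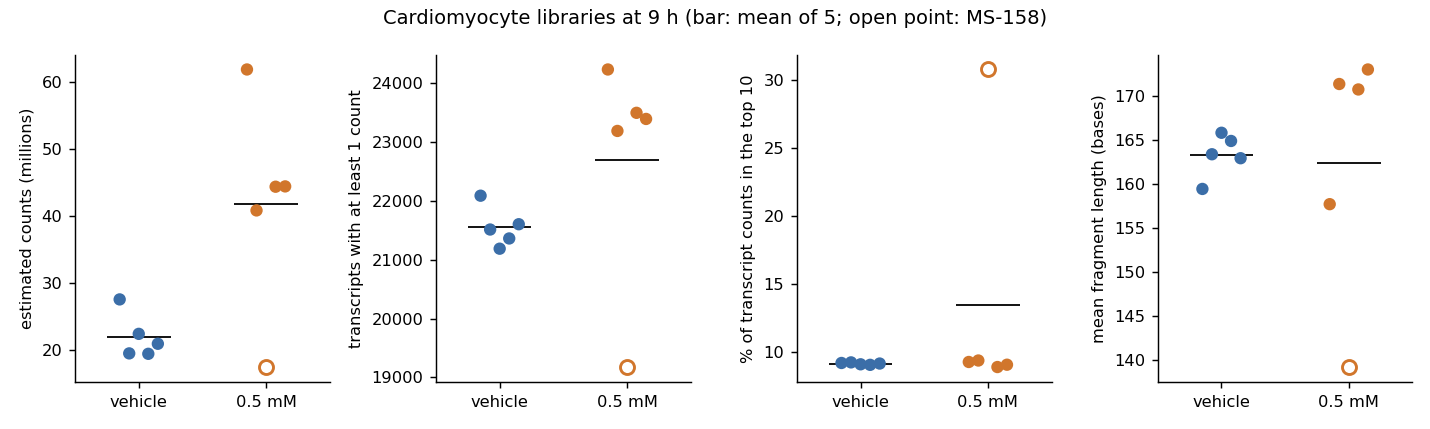
Each point is 1 library of cardiomyocytes at 9 h, with vehicle on the left and 0.5 mM on the right of each panel, and the bar is the mean of 5. The panels show total estimated counts, transcripts with at least 1 count, the share of transcript counts in the 10 most abundant transcripts and the mean fragment length in bases. The open point, MS-158, has 19177 transcripts detected and 30.8% of counts in its 10 most abundant transcripts.

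At 0.5 mM and 9 h, 414 of 17162 transcripts tested changed (2.41%), of which 219 were higher (1.28%) and 195 were lower (1.14%) than in vehicle. Changed means an adjusted p of at most 0.05 (edgeR quasi-likelihood F test, Benjamini-Hochberg) together with a fold change of at least 1.51. The median log2 fold change was 0.99 among the higher and −0.82 among the lower transcripts, and the fold threshold sets a smallest size for both. Of the 219 higher transcripts 108 reached 2-fold, and of the 195 lower ones 70 did. In 401 of the 414 the libraries of the 2 groups did not overlap, whereas 2715 of all 17162 did not overlap (15.8%).

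Leaving out MS-158 gave more calls. Then 775 of 17605 transcripts changed (4.4%), of which 421 were higher (2.39%) and 354 lower (2.01%). The 2 lists shared 379 transcripts, all with the same sign, which is 91.5% of the 414 and 48.9% of the 775. Across the transcripts tested, the mean absolute log2 fold change was 0.34 with MS-158 and 0.26 without it. With all libraries, 700 transcripts differed by 2-fold or more and were not called, and 568 of these were higher at the low dose. Of the 700, 439 fell under 2-fold when MS-158 was left out. Leaving out any 1 of the other libraries gave 246 to 406 changed transcripts, and the lowest value came without the vehicle library MS-155.

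The plot of fold change against abundance shows where the changed transcripts lay. Of 3065 transcripts with a mean abundance of 0 to 2 log2 CPM, 120 changed (3.92%), and of 5352 with 4 to 6 log2 CPM, 82 changed (1.53%). Below 0 log2 CPM 38 of 1498 changed (2.54%), and at 2 to 4 log2 CPM the share was 2.89% of 4253. Among the 572 most abundant, above 8 log2 CPM, 7 changed (1.22%), of which 2 were higher. By length, 48 of 2352 transcripts shorter than 1000 bases changed (2.04%), and 2.72% of the 6437 transcripts of 2000 to 4000 bases did. Changed transcripts were thus found at all lengths and abundances, and the differences between these shares were not tested. In 1 changed transcript all 5 low-dose libraries were listed at 0, and no fold change is given for it.

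**Figure D2:**
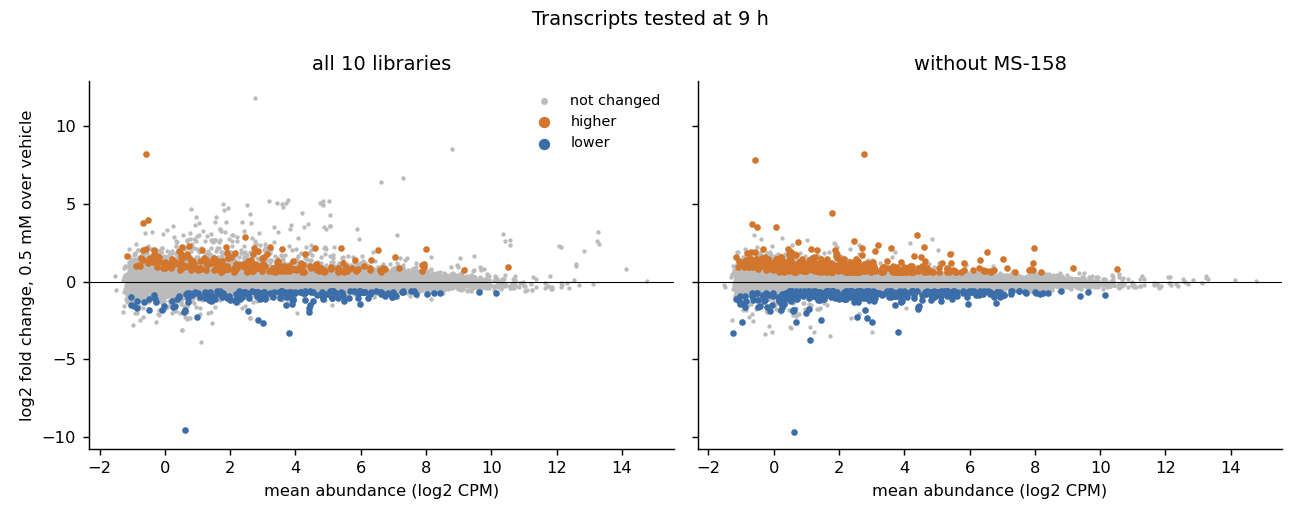
Each point is 1 of the transcripts tested at 9 h, with mean abundance in log2 CPM on the horizontal axis and the log2 fold change of 0.5 mM over vehicle on the vertical axis, for all 10 libraries (left) and without MS-158 (right). Orange and blue points are changed transcripts, 219 higher and 195 lower on the left, and the grey cloud is narrower on the right, where the mean absolute log2 fold change over all transcripts tested in that fit is 0.26.

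Only 4 transcripts are named because none can be given a gene. They are the 2 with the largest rise and the 2 with the largest fall among changed transcripts of at least 3 log2 CPM whose groups did not overlap, a condition met by 187 transcripts, 82 of them higher. Their levels are in CPM, scaled over all 30 cardiomyocyte libraries. As they were chosen for their change at 9 h, a smaller change in another comparison is favoured by the choice, so their differences between doses, times and cell types are given with an SE and no test.

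ENSRNOT00000020225, a transcript of 2029 bases, was at 3.19, 2.65, 2.95, 3.39 and 3.63 CPM in the vehicle libraries MS-151 to MS-155. It was at 7.48, 19.0, 9.18, 19.99 and 18.1 CPM in the low-dose libraries MS-156 to MS-160. All 5 low-dose libraries were above all vehicle libraries, and MS-156 and MS-158 were the lowest of them. The log2 fold change was 2.23 (SE 0.29, edgeR adjusted p = 2.57e-03, n = 5 per group), and 2.35 without MS-158. At the high dose of 1.5 mM the level was 74.98 ± 3.35 CPM (SD, n = 5) at 9 h, and the log2 difference between high and low dose was 2.35 (SE 0.27). All 5 high-dose libraries were above all low-dose libraries.

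ENSRNOT00000036518, of 1785 bases, was at 17.3, 14.7, 14.9, 16.1 and 13.7 CPM in the vehicle libraries. It was at 42.7, 48.8, 132.5, 58.1 and 58.5 CPM in the low-dose libraries. All low-dose values were higher, and MS-158 was far above the other 4. The log2 fold change was 2.16 (SE 0.30, edgeR adjusted p = 3.42e-03), and 1.76 (SE 0.10, edgeR adjusted p = 7.20e-06) without MS-158. At the high dose the level was 56.2 ± 8.66 CPM (SD, n = 5), and the log2 difference between the doses, with MS-158 in the fit, was −0.26 (SE 0.29). The sign of this difference depended on MS-158. The high-dose log2 fold change over vehicle was 1.89 (SE 0.10), below the low-dose value with MS-158 and above the 1.76 without it.

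ENSRNOT00000007879, of 729 bases, fell most. It was at 26.0, 25.01, 26.2, 22.2 and 28.3 CPM in the vehicle libraries and at 3.24, 1.58, 2.07, 3.19 and 2.66 CPM in the low-dose libraries. The groups were far apart and MS-158 lay within the range of the other low-dose libraries. The log2 fold change was −3.30 (SE 0.20, edgeR adjusted p = 3.04e-05), and −3.24 without MS-158. At the high dose it was at 1.54 ± 0.37 CPM (SD, n = 5), a log2 difference of −0.73 from the low dose (SE 0.25).

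ENSRNOT00000007219, of 2817 bases, was at 15.1, 13.5, 13.1, 13.4 and 14.3 CPM in the vehicle libraries. It was at 1.99, 2.49, 1.44, 2.30 and 2.43 CPM in the low-dose libraries. The groups did not overlap, and the log2 fold change was −2.68 (SE 0.14, edgeR adjusted p = 1.28e-05), or −2.59 without MS-158. At the high dose, however, the level was 9.96 ± 0.57 CPM (SD, n = 5), above the low dose by 2.22 on the log2 scale (SE 0.15). The low-dose level was thus below the level at 3 times the concentration.

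**Figure D3:**
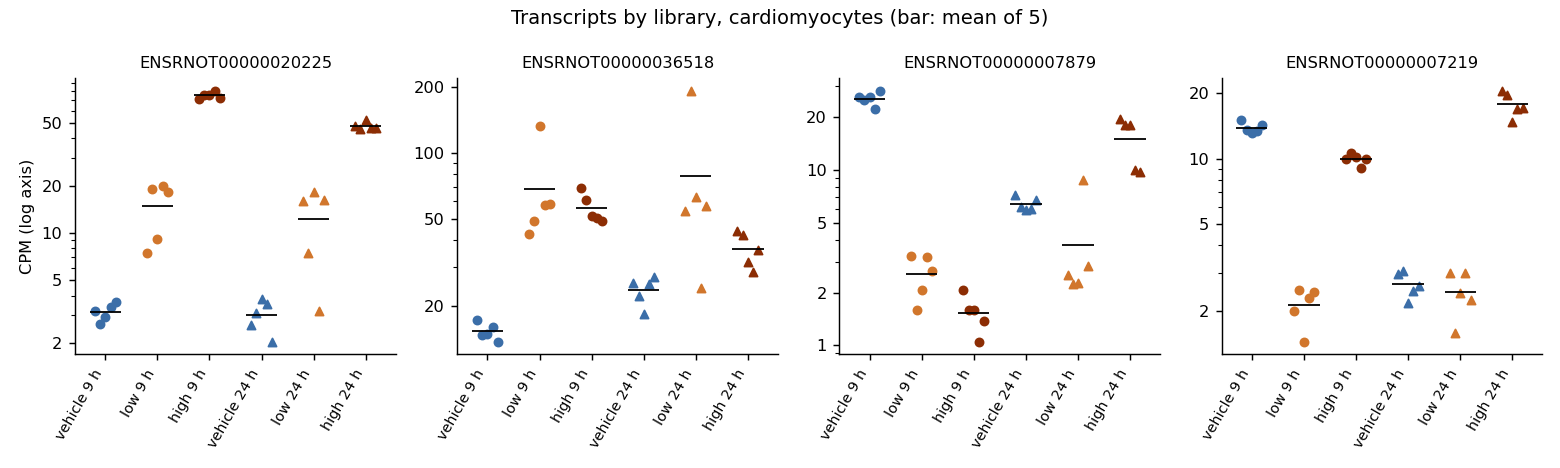
Each panel shows 1 of the 4 named transcripts, with CPM on a log axis and the 6 cardiomyocyte groups on the horizontal axis. Each point is 1 library (circles 9 h, triangles 24 h) and the bar is the mean of 5. At 9 h the points of ENSRNOT00000020225 are higher at each higher dose, while ENSRNOT00000007219 is low in the low-dose group at 9 h and in the vehicle and low-dose groups at 24 h.

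The high dose was compared with the same 5 vehicle libraries, so its values are set beside those of the low dose without a measure of likeness. At 1.5 mM and 9 h, 2257 of 17871 transcripts changed (12.6%), 1112 higher and 1145 lower. The 219 transcripts that were higher at the low dose had a median log2 fold change of 0.50 at the high dose, and the 195 lower ones had a median of −0.76. Their low-dose medians, 0.99 and −0.82, were set by their choice and are not compared with these. These medians are over the 215 higher and all 195 lower transcripts with a value at the high dose, and the 17087 of the 17162 with a value had a median of 0.00. High against low dose gave 1414 changed of 18393 (7.69%), 599 higher and 815 lower at the high dose, and 2078 without MS-158.

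The 24 h libraries are separate from those at 9 h, so they give a second reading of the same dose. At 24 h, 0 of 16998 transcripts passed edgeR's test, 2028 had an unadjusted p under 0.05 (11.9%), DESeq2 called 180 and limma with library weights called 837. Even so, of the 219 transcripts that were higher at 9 h, 214 were measured at 24 h and 79.0% of these had a positive log2 fold change (median 0.35), whereas 48.3% of all transcripts with a value were positive (median −0.01). Of the 195 lower transcripts, 54 were positive, which is 29.2% of those measured (median −0.19). Low-dose libraries were uneven at 24 h too. MS-172 resembled MS-158, with 34.2% of its counts in 10 transcripts and a mean fragment length of 131.6 bases, and leaving it out gave 7 changed transcripts (0.0407%).

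The low-dose 24 h library MS-174 lay with the vehicle libraries for 3 of the 4 named transcripts. ENSRNOT00000020225 was at 15.9, 7.47, 18.3, 3.21 and 16.2 CPM in MS-171 to MS-175, and at 2.04 to 3.83 CPM in the 24 h vehicle libraries. ENSRNOT00000036518 was at 54.2, 191.5, 62.9, 24.1 and 57.3 CPM, against 18.4 to 27.1 CPM in vehicle. ENSRNOT00000007879 was at 2.53, 2.22, 2.28, 8.74 and 2.82 CPM, against 5.95 to 7.24 CPM in vehicle. In each case the fourth value, MS-174, was within the vehicle range or farther from the other low-dose libraries than all of vehicle, and the other 4 libraries were not. For ENSRNOT00000007219 the low-dose (1.59 to 2.97 CPM) and vehicle libraries (2.17 to 3.06 CPM) overlapped at 24 h. On the contig interval AABR07024106.1, named below, MS-174 went the other way. It was at 4.43 CPM there, above the 24 h vehicle libraries (1.83 to 3.74 CPM). Whether the label of MS-174 is right was not tested, and every low-dose value at 24 h, the 0 calls and the differences between times included, depends on that label. Without MS-174, 0.751% of 17182 transcripts changed at 24 h, 95 higher (0.553%) and 34 lower (0.198%). It was left out because its values lay with vehicle for transcripts chosen at 9 h, so these calls are a description and no second reading of the 9 h lists.

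The difference between the times was tested in 1 fit of the 4 groups. The low-dose response differed between 24 and 9 h for 0.797% of 17932 transcripts, 94 with the more positive fold change at 24 h and 49 with the more negative. ENSRNOT00000007219 had a log2 fold change of −2.68 at 9 h and −0.10 at 24 h, a difference of 2.58 (SE 0.24). Its vehicle level was 13.9 ± 0.80 CPM at 9 h and 2.65 ± 0.36 CPM at 24 h (SD, n = 5), while its low-dose level was 2.13 ± 0.43 and 2.44 ± 0.58 CPM. Between the times it was thus the vehicle level that differed more. For ENSRNOT00000007879 the difference between times was 2.54 (SE 0.44), and 1.94 (SE 0.23) without MS-174. The vehicle level of this transcript was likewise lower at 24 h, 6.41 ± 0.57 against 25.5 ± 2.22 CPM. For the 2 transcripts that rose, the difference between times was −0.20 (SE 0.52) for ENSRNOT00000020225 and −0.43 (SE 0.56) for ENSRNOT00000036518. Without MS-174 these 2 values were 0.05 (SE 0.41) and −0.20 (SE 0.49), and the difference for ENSRNOT00000007219 was 2.51 (SE 0.24).

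Renal tube epithelial cells were given the same 0.5 mM, which was their high dose, for 9 h. There 3403 of 17814 transcripts changed against renal vehicle (19.1%). Of the 219 transcripts higher in cardiomyocytes, 72.3% of those measured in renal cells had a positive log2 fold change (median 0.32), against 49.7% of all with a value (median 0.00). Among them 54 were called higher and 18 lower, where 8.16% of all renal transcripts were called higher and 10.9% lower. Of the 195 lower transcripts, 55 were positive (35.7% of those measured, median −0.32), 57 were called lower and 21 higher. A direct test of the difference between the cell types called 2733 of 19227 transcripts (14.2%), of which 1764 had the lower fold change in renal cells. Without MS-158 it called 3301 of 19492 (16.9%), 2066 of them with the lower fold change in renal cells.

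The named transcripts differed from each other in the renal cells. ENSRNOT00000020225 was at 19.8 ± 0.67 CPM in vehicle and at 93.1 ± 2.09 CPM after exposure (SD, n = 5). Its log2 fold change was 2.23, and the difference from cardiomyocytes was −0.02 (SE 0.27). ENSRNOT00000036518 was at 85.7 ± 4.33 and 78.7 ± 4.20 CPM, a log2 fold change of −0.12 and a difference from cardiomyocytes of −2.28 (SE 0.30). ENSRNOT00000007879 had a log2 fold change of −0.69 in renal cells, a difference of 2.58 (SE 0.18). ENSRNOT00000007219 had −1.85 in renal cells, a difference of 0.80 (SE 0.16).

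The targets named by coordinates gave fewer changes. Of 6344 genomic intervals tested, 40 changed at 0.5 mM and 9 h (0.631%), 22 higher (0.347%) and 18 lower (0.284%), and the median log2 fold change over all intervals was 0.22. In 39 of the 40 the libraries of the groups did not overlap, as in 448 of all 6344 (7.06%). Without MS-158, 216 of 6935 changed (3.11%), with 1.98% higher and 1.14% lower, and a median of 0.03. The 9 leave-outs of the other libraries gave 15 to 34 changed intervals. The sources used here do not say how the intervals were chosen or what is annotated in them, and no genome of this build was used.

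The interval chr4:117531981-117550439 was at 317, 318, 271, 311 and 279 CPM in the vehicle libraries. It was at 47.4, 33.3, 41.5, 40.2 and 37.8 CPM in the low-dose libraries. The groups were apart by several fold, with a log2 fold change of −2.89 (SE 0.13, edgeR adjusted p = 9.78e-07), and −2.91 without MS-158. The interval chr15:30528213-30548212 was at 266, 280, 242, 262 and 264 CPM in vehicle and at 75.8, 84.1, 123.3, 74.1 and 71.2 CPM at the low dose. MS-158, at 123.3 CPM, was nearest to vehicle. Its log2 fold change was −1.61 (SE 0.16, edgeR adjusted p = 1.07e-03), and −1.78 without MS-158.

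The interval chr6:6293751-6313750 was at 1.86, 1.601, 1.45, 2.29 and 1.74 CPM in the vehicle libraries. It was at 4.76, 3.99, 4.23, 4.30 and 5.28 CPM in the low-dose libraries, a log2 fold change of 1.34 (SE 0.16, edgeR adjusted p = 3.14e-03), and 1.36 without MS-158. The groups did not overlap. The largest rise under the rule was at bases 16239 to 36238 of the unplaced contig AABR07024106.1, which was at 0.988, 1.05, 0.749, 1.75 and 0.725 CPM in vehicle. It was at 3.02, 9.77, 7.11, 3.76 and 8.48 CPM at the low dose, with a log2 fold change of 2.62 (SE 0.38, edgeR adjusted p = 0.0120), and 2.58 without MS-158. This call was lost when any 1 of the vehicle libraries MS-151, MS-152, MS-153 or MS-155 was left out (edgeR adjusted p = 0.0569, 0.0625, 0.0687 and 0.0560), with log2 fold changes of 2.59, 2.61, 2.52 and 2.50.

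**Figure D4:**
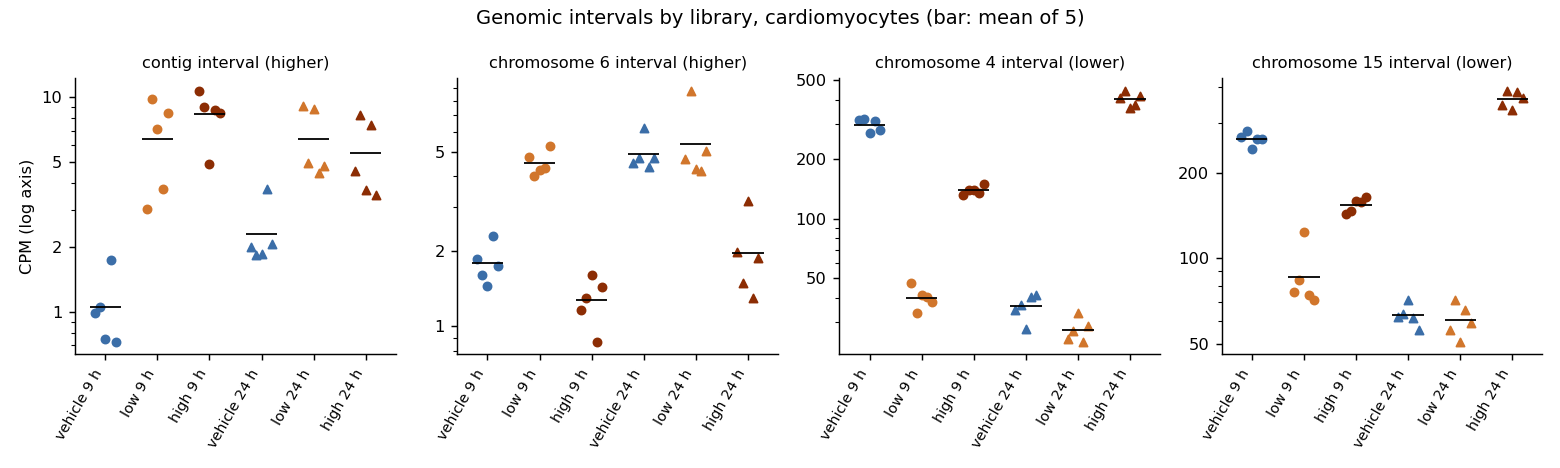
Each panel shows 1 of the 4 named genomic intervals, with CPM on a log axis and the 6 cardiomyocyte groups on the horizontal axis. Each point is 1 library (circles 9 h, triangles 24 h) and the bar is the mean of 5. The intervals on chromosomes 4 and 15 are low in the low-dose group at 9 h and in the vehicle and low-dose groups at 24 h, with means of 40.0, 36.1 and 27.5 CPM for chromosome 4, and high in the other 3 groups.

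On chromosome 6, 3 of the 40 changed intervals lay within chr6:133663104-133819510, a span of 156407 bases, and were the only changed intervals with another changed interval within 200000 bases. Their log2 fold changes were 0.88 (SE 0.14), 1.29 (SE 0.22) and 0.94 (SE 0.16), each with an edgeR adjusted p of 0.0173 to 0.0246, and 0.76, 1.25 and 0.83 without MS-158. In all, 9 intervals were tested within the span and 11 within 200000 bases of it. The other 8 were not called, with positive log2 fold changes of 0.48 to 2.15 and edgeR adjusted p-values of 0.0886 to 0.438. The stretch was picked for its calls and has no test of its own. The first changed interval, chr6:133663104-133667474, had group means of 19.1 CPM in vehicle and 34.95 CPM at the low dose at 9 h, and 52.7 CPM in vehicle at 24 h. In the second, chr6:133734161-133739416, these means were 0.338, 0.836 and 0.590 CPM. In the third, chr6:133799511-133819510, they were 4.23, 8.10 and 9.36 CPM. The low-dose mean at 9 h thus lay between the vehicle means at 9 and 24 h in the first and in the third, and above both in the second. At the high dose and 9 h the means were 14.2, 0.237 and 3.81 CPM, below the 9 h vehicle mean in all 3.

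Several of these levels did not follow dose. In ENSRNOT00000007219 and in the named intervals on chromosomes 4, 6 and 15, the low-dose group at 9 h lay with the vehicle and low-dose groups at 24 h, and the vehicle group at 9 h lay with both high-dose groups. The chromosome 4 interval, for instance, had means of 299 CPM in vehicle, 40.0 CPM at 0.5 mM and 139.5 CPM at 1.5 mM after 9 h, and of 36.1, 27.5 and 401 CPM after 24 h. This arrangement was noticed in the values and then counted over all targets, so no test is given. All libraries of the first 3 groups lay on 1 side of all libraries of the other 3 in 54 of the 414 changed transcripts, and in 194 of all 17162 (1.13%). For the changed intervals the count was 14 of 40, and 42 of all 6344 (0.662%). Without MS-158, MS-172 and MS-178, the last a high-dose 24 h library with 17678 transcripts detected, the counts were 84 of 414 (background 2.16%) and 17 of 40 (background 0.993%).

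Arrangements by exposure were counted as well. All treated libraries lay on 1 side of all vehicle libraries, at both times, in 12 of the 414 changed transcripts (7 higher and 5 lower), and in 26 of all 17162 (0.151%). All low-dose libraries lay on 1 side of all vehicle libraries, at both times, in 20 of the 414 (12 higher and 8 lower), and in 63 of all 17162 (0.367%). Of the changed intervals 0 of 40 were arranged in either way, where 0.0315% and 0.126% of all 6344 were. No arrangement was counted without the library MS-174, which lay with vehicle for 3 of the named transcripts. A treated library that lies with vehicle in a target keeps that target out of both arrangements by exposure. For how many targets MS-174 did so was not tested. The vehicle libraries at 9 h stood apart from all libraries of the other 5 groups in 60 of the 414 (background 1.46%), and in 6 of the 40 intervals (background 0.426%). The arrangements differ in the sizes of their groups, so their counts are not ranked. Without MS-158, MS-172 and MS-178, the 3 transcript counts were 13 (background 0.21%), 24 (background 0.548%) and 69 (background 2.06%) of the 414. Again 0 of the 40 intervals were arranged by exposure in either way (backgrounds 0.0473% and 0.189%). In 7 of the 40 the 9 h vehicle libraries stood apart (background 0.709%). Each of these arrangements needs the low-dose and vehicle libraries at 9 h to be apart, so changed transcripts enter it more readily than others. The labels give no culture batch or donor for any library, so no within-batch values could be computed, and the part of such a batch in these counts was not tested.

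**Figure D5:**
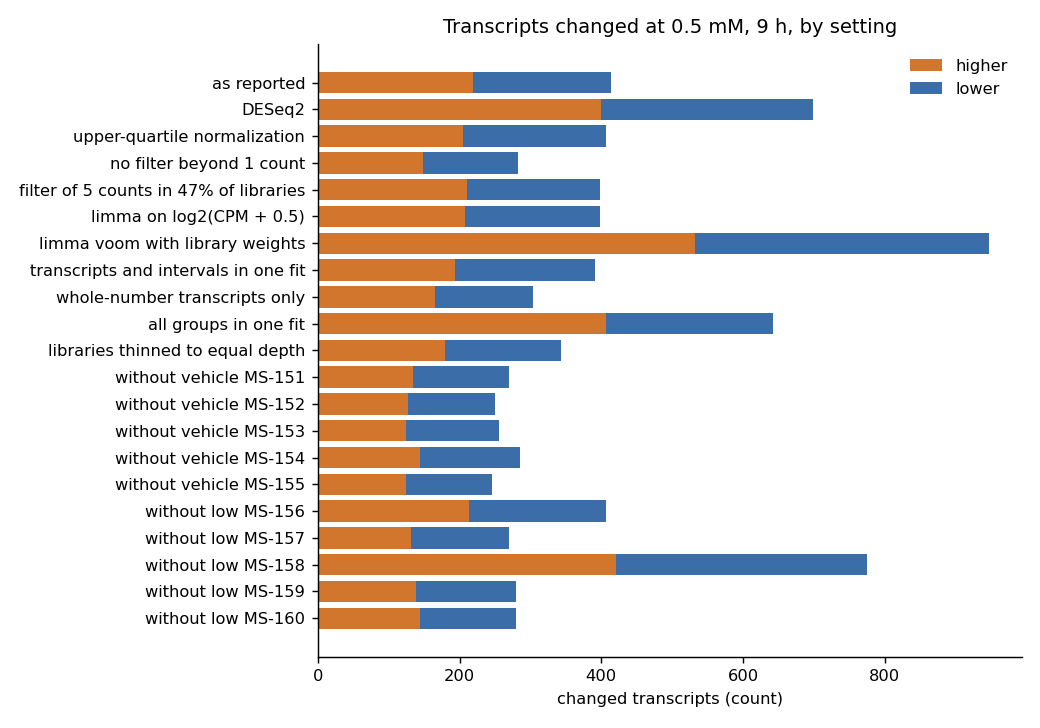
Bars give the number of transcripts changed at 0.5 mM and 9 h, split into higher (orange) and lower (blue), as reported, under each alternative way of processing other than another fold threshold, or with 1 library left out. The bars run from 246 without the vehicle library MS-155 to 775 without MS-158 among the leave-outs, and to 947 with a weight for each library.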

How the data were processed

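Poly-A-enriched RNA from cultured cells was sequenced by the authors as paired reads. Per the labels, Kallisto 0.42.4 was run by the authors against Rnor_6.0 targets. The authors deposited, for each library, the expected counts per target, TPM and the target's length and effective length, with no pooling. The deposited TPM were used for 1 alternative.

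Estimated counts of transcripts were rounded and tested with edgeR 4.0.16 in R 4.3.3 (filterByExpr, TMM factors, quasi-likelihood F test, Benjamini-Hochberg adjustment over all transcripts tested). The adjusted p had to be 0.05 or less and the fold change, as a natural log, 0.41 or more in size. SE is the log2 fold change divided by the root of F. Intervals were tested alone with the scaling of the transcripts. Depth is given per library in the text, and intervals for counting error were not computed for single libraries. Library measures were compared by exact permutation tests. Alternatives used DESeq2 1.42.0 and limma 3.58.1, other filters and scalings, and leaving out each library. The scripts were tested on simulated data.

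The comparison and the lists were chosen with earlier results of these data known. Named targets had at least 3 log2 CPM (intervals at least 1), libraries of the groups that did not overlap, and the 2 largest rises or falls. Cell type marker and gene lists were not used, since transcripts could not be paired with genes. Groups came from the sample labels.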

Additional observations from a re-analysis of the deposited data

Results flagged for a closer look

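Within the groups of 5, a library was listed when its gap to the nearest other library exceeded 0.71 of the range. Chance does so in about 5% of sets. Of 26 sets of library measures and named levels, 4 did, and 1 of these, transcripts detected, is the measure for which MS-158 had been set aside, so it is a description. All 4 were the low-dose library MS-158, with 19177 transcripts detected, 30.8% of counts in 10 transcripts, 132.5 CPM of ENSRNOT00000036518 and 123.3 CPM of the interval chr15:30528213-30548212.

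The response differed between groups of libraries in a test of the difference itself. Between 24 and 9 h it differed for 0.797% of transcripts tested, and between renal cells and cardiomyocytes at 0.5 mM for 14.2%. These shares are of transcripts that passed the threshold in edgeR with Benjamini-Hochberg adjustment. Of the named transcripts, ENSRNOT00000007879 (2.54 on the log2 scale, 1.94 without MS-174) and ENSRNOT00000007219 (2.58) were listed for the times. For the cell types they were ENSRNOT00000036518 (−2.28), ENSRNOT00000007879 (2.58) and ENSRNOT00000007219 (0.80). The named transcripts were chosen for their change in cardiomyocytes at 9 h, which enters each difference and favours a smaller change elsewhere. Their values are therefore a description, and no test of them is given.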

How the results depend on the processing

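Named targets were run in 10 leave-outs and 9 other alternatives. These did not include other fold thresholds, transcripts with whole-number counts only or the deposited TPM. No named transcript or interval changed direction under any of them. The 4 named transcripts kept their call in all of them, with an edgeR, DESeq2 or limma adjusted p of at most 0.016, and the contig interval lost it in 4 leave-outs. The named targets were chosen from these libraries for large changes without overlap, which favours keeping a call. The libraries were uneven in depth. Thinned to equal depth, a choice made after the data were seen, the libraries gave 343 changed transcripts. No paired analysis was possible because the groups share no replicate numbers. The causes of the differences below were not tested, other than those a changed fold threshold sets by construction. Shares are of the targets tested.

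For low dose against vehicle at 9 h, 2.41% of transcripts changed. The share was 5.45% with no fold threshold (936 transcripts), 1.04% at 2-fold, 4.07% with DESeq2 (699), 5.52% with limma voom and library weights (947), and 3.45% with all cardiomyocyte groups in 1 fit, where 407 were higher and 235 lower. Leaving out 1 library gave 1.40% to 4.40%. The count moved by more than 1.5 times without MS-151 (270), MS-152 (250), MS-153 (256), MS-155 (246), MS-157 (270) or MS-158 (775). The mean absolute log2 fold change was 0.76 with no filter on low counts. The difference in transcripts detected was 1147, was 1099 at a minimum of 5 counts, and ranged from 763 to 2028 when 1 library was left out, the highest without MS-158.

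High dose against vehicle at 9 h gave 45.3% with no fold threshold, 5.69% at 2-fold and 14.1% among transcripts with whole-number counts. High against low dose gave 13.9%, 3.73% and 10.8% under the same alternatives, and 12.3% with library weights. Low dose against vehicle at 24 h gave 1.06% with DESeq2, 4.92% with library weights, 1.04% with all groups in 1 fit, 0.0145% among whole-number transcripts, and 0% to 0.751% without 1 library, the highest without MS-174.

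The difference between times gave 1.28% with no fold threshold, 0.34% at 2-fold, 1.85% with DESeq2, 0.267% with no filter, 5.78% with library weights and 2.63% without both MS-158 and MS-172. It gave 0.512% to 1.49% without 1 library, with 95 transcripts without MS-166, 93 without MS-167, 270 without MS-158 and 229 without MS-172. With library weights 565 were higher and 471 lower, against 94 and 49. The difference between renal cells and cardiomyocytes gave 23.4% with no fold threshold, 7.51% at 2-fold and 19.8% among whole-number transcripts.

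Changed intervals were 0.378% at 2-fold, 2.05% with DESeq2 (90 higher and 40 lower), 0.0618% with no filter, 0.203% at 5 counts in 47% of libraries, 3.45% with library weights, 1.28% in 1 fit with the transcripts and 1.26% with all groups (78 higher and 32 lower). Without 1 library they were 0.208% to 3.11%, with 216 without MS-158 and 15 to 19 without any 1 of the others save MS-156.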
